A study of Mus musculus with 10 samples.

Results

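Excitation-contraction coupling is the step by which an action potential on the fibre surface releases the calcium that makes a skeletal muscle contract. It was described here through 10 genes taken by symbol: Cacna1s, Stac3, Ryr1, Jph1, Trdn, Jsrp1, Casq1, Atp2a1, Sln and Pvalb. All 10 were found among the 21956 genes of the deposited table, and all 10 were among the 13404 genes that passed the filter on low counts. Poly(A) RNA was measured in gastrocnemius, a large calf muscle, from wild-type mice, with 5 libraries labelled Sham and 5 labelled HLI, 1 library per sample. The abbreviation HLI is not written out in the labels and is read as hindlimb ischaemia, and neither the time after surgery nor the age or strain of the animals is given. Nothing in the labels ties each library to its own animal, so every p-value here reflects library-to-library spread that could be technical.

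In a skeletal fibre the surface membrane folds inward as transverse tubules, and each tubule is flanked by terminal cisternae of the sarcoplasmic reticulum in a junction called the triad. A voltage sensor in the tubule, the L-type calcium channel, touches the ryanodine receptor of the reticulum and opens it mechanically. Calcium stored on calsequestrin then floods the cytosol, binds troponin and, in fast fibres, parvalbumin, and is pumped back into the reticulum by SERCA, whose activity is restrained by small membrane peptides such as sarcolipin.

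Promoter sequences were matched by symbol in RefSeq (build GRCm38.p6) for 5 of the 10 genes, Cacna1s, Casq1, Ryr1, Atp2a1 and Pvalb. Sln, Jph1, Stac3, Trdn and Jsrp1 had no entry. The windows below are the 250 bases before the annotated start. They are shown for the genes whose levels went together across most libraries and whose windows held a motif of muscle transcription factors. Capitals mark a CANNTG box, the letters bound by MyoD-type factors, or a MEF2 box, searched on both strands. The Atp2a1 window is chr7:126463074-126463323, the Casq1 window chr1:172219896-172220145, the Cacna1s window chr1:136052561-136052810 and the Pvalb window chr15:78206401-78206650. That of Cacna1s is on the plus strand and the other windows are on the minus strand.
Atp2a1: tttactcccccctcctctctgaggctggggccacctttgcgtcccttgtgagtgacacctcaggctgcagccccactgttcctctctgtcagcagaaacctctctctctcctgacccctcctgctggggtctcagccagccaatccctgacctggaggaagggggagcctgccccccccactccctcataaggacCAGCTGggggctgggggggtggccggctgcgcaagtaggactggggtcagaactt
Casq1: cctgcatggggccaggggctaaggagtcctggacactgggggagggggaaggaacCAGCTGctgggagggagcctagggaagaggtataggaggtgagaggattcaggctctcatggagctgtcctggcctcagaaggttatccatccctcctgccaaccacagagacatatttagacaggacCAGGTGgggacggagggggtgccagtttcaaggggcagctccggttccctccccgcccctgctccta
Cacna1s: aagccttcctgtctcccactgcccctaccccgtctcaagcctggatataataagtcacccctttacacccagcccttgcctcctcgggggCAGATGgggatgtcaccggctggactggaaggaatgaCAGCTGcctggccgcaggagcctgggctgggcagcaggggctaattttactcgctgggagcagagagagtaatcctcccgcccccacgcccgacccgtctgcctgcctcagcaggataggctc
Pvalb: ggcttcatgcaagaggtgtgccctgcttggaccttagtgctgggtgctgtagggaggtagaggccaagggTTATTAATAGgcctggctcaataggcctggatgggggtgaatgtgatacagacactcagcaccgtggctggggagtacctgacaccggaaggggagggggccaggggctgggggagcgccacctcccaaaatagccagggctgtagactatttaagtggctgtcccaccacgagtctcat

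Each of the Atp2a1, Casq1 and Cacna1s windows held 1 copy of the palindrome CAGCTG, a subset of the CANNTG boxes, which was found in 13% of all 32851 promoter windows of the same length. In Atp2a1 it lay between bases -55 and -50, in Cacna1s between -123 and -118 and in Casq1 between -195 and -190 relative to the start. Casq1 and Cacna1s each held 2 CANNTG boxes in all, as 31.8% of windows did with at least 2, and Atp2a1 held 1, as 66.2% of windows did with any. The Pvalb window held a MEF2 box between -180 and -171, a motif found in 2.92% of windows. Another annotated Pvalb start had 1 CANNTG box and no MEF2 box, and the Ryr1 window had neither motif. The windows printed were chosen for holding a motif, so the shares are background only, and enrichment was not tested. These are matches of letters in a short window and say nothing of binding.

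Before the comparison, 3 libraries need to be set apart. HLI replicate 3 had the lowest level of mature fibre transcripts. Its summed level of 10 fixed fibre genes (Acta1, Ckm, Ttn, Neb, Tnnt3, Actn3, Mylpf, Tnni2, Myh4 and Pygm) was 52939 CPM (counts per 1000000 counts of the library, scaled by TMM), against 95982 to 141789 CPM in the other HLI libraries and 123236 to 162909 CPM in Sham. Sham replicate 1 and HLI replicate 1 stood apart from the rest of their groups in transcripts of newly formed fibres, Myh3, Myh8 and Myl4. The sum of these 3 genes was 271 CPM in Sham replicate 1 against 9.98 to 13.8 CPM in the other Sham libraries, and 13.8 CPM in HLI replicate 1 against 190 to 1308 CPM in the other HLI libraries. All 10 fibre genes were above 0 in every library, so the defining transcripts of the labelled tissue were present. Each library held between 16556385 and 22136299 estimated counts. Summed CPM of 7 macrophage markers ran from 509 to 1305 in Sham and from 680 to 2753 in HLI, of 5 fibroblast markers from 5419 to 7901 and from 4126 to 14866, of 6 endothelial markers from 794 to 1451 and from 882 to 1446, and of 6 slow fibre genes from 1194 to 2388 and from 356 to 2050. None of these markers was at 0 in any library, and the part of other cells in the results below was not tested.

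Levels of different genes are compared as TPM, which is relative to gene length. Together the 10 genes made up 2.22% to 3.04% of all TPM in Sham and 1.27% to 2.72% in HLI, with the lowest share in HLI replicate 3. The calcium pump gene Atp2a1 was first, with a mean of 9830 TPM over the 10 libraries (SD 2037), followed by Pvalb at 9453 TPM (SD 2666) and Casq1 at 2737 TPM (SD 546). Atp2a1 exceeded Pvalb in only 7 of 10 libraries, so these neighbours were not apart beyond their spread, whereas Pvalb exceeded Casq1 in 10 of 10. Stac3 (369 TPM, SD 89.2), Jsrp1 (341 TPM, SD 46.9), Ryr1 (256 TPM, SD 57.3) and Cacna1s (251 TPM, SD 46.2) came next. Stac3 exceeded Jsrp1 in 8 of 10 libraries and Jsrp1 exceeded Ryr1 in 10 of 10. Ryr1 exceeded Cacna1s in 5 of 10 and Cacna1s exceeded Trdn in 8 of 10. Trdn followed at 196 TPM (SD 84.4), Jph1 at 97.5 TPM (SD 20.2) and Sln last at 24.8 TPM (SD 30.6), the only gene whose SD exceeded its mean.

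The comparison of HLI with Sham asks how these transcripts differ between the conditions. None of the 10 genes passed the test (edgeR quasi-likelihood, Benjamini-Hochberg adjusted p under 0.05 over all genes), with adjusted p between 0.29 and 0.79. The background was also empty, since 0 of 13404 genes passed in either direction (0%). At an unadjusted p under 0.05, 1 of the 10 genes was lower (Cacna1s) and 1 higher (Sln), where 6.15% of all genes were lower and 10.7% higher. That count of the 10 moved with single libraries and with the tool. Without HLI replicate 4 it was 8 lower and 1 higher, where 14.5% of all genes were lower and 16.5% higher, and without Sham replicate 5 it was 0, where 2.74% were lower and 6.02% higher. With DESeq2 it was 5 lower and 1 higher, against 8.4% and 11.3% of all genes. DESeq2 and the limma fits on TPM also called 0 of the 10, and DESeq2 called 42 genes over the whole table, 0.267% of those tested as higher and 0.0533% as lower. The estimates of 8 of the 10 genes were below 0, against 46.2% of all genes, and 5 of the 10 were when libraries were scaled to muscle fibre genes as described below. The median of the 10 was -0.42, against 0.03 for all genes tested, and it was -0.28 without HLI replicate 3 and -0.65 without HLI replicate 4. No gene of the 10 had all HLI libraries on 1 side of all Sham libraries, where 0.873% of all genes had HLI wholly below and 0.776% wholly above. In bulk RNA, fewer fibres and less RNA per fibre cannot be told apart in such values.

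The voltage sensor gene Cacna1s (ENSMUSG00000026407), which encodes the pore-forming subunit of the L-type channel in the tubule, stood at 909, 1060, 914, 1058 and 1176 CPM in Sham replicates 1 to 5. In HLI replicates 1 to 5 it stood at 619, 800, 428, 1027 and 647 CPM. HLI replicates 1, 2, 3 and 5 lay below every Sham library, and the lowest value was in HLI replicate 3. Sham averaged 1023 ± 113 CPM and HLI 704 ± 224 CPM (SD, n = 5). The log2 fold change was -0.54 (SE 0.21, edgeR adjusted p = 0.29), with estimates of -0.40 without HLI replicate 3 and -0.73 without HLI replicate 4 (edgeR adjusted p = 0.57 and 0.081). Stac3, whose product brings the voltage sensor to the triad and is needed for its coupling, ranged from 164 to 243 CPM in Sham and from 75.3 to 258 CPM in HLI. HLI replicate 4 held the highest Stac3 level of all libraries and HLI replicate 3 the lowest. Its log2 fold change was -0.43 (SE 0.26, edgeR adjusted p = 0.37), and it was -0.27 without HLI replicate 3 and -0.74 without HLI replicate 4.

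Ryr1 (ENSMUSG00000030592), the calcium release channel of the reticulum, stood at 2078, 3101, 2247, 2547 and 3154 CPM in Sham replicates 1 to 5. In HLI replicates 1 to 5 it stood at 1727, 1970, 952, 2726 and 1723 CPM. The order of the HLI libraries resembled that of Cacna1s, with replicate 3 at the bottom and replicate 4 inside the Sham range. The log2 fold change was -0.53 (SE 0.25, edgeR adjusted p = 0.30), and -0.37 without HLI replicate 3. The ratio of Cacna1s to Ryr1, which pairs sensor and release channel within a library, was 0.994 ± 0.0949 in Sham and 0.990 ± 0.0903 in HLI (TPM over TPM, SD, n = 5). Every library lay between 0.860 and 1.13. On the log2 scale the ratio differed between groups by -0.01 (SE 0.09, exact two-sided permutation p = 0.95, and 0.95 after adjustment over 10 ratios).

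Jph1, which encodes the junctophilin that ties tubule and reticulum membranes together, ranged from 232 to 310 CPM in Sham and from 151 to 397 CPM in HLI. HLI replicate 4 was above every Sham library, whereas HLI replicates 1, 3 and 5 were below them all, so the HLI libraries fell on both sides of Sham. The Jph1 estimate was -0.29 on the log2 scale (SE 0.24, edgeR adjusted p = 0.48), and it was -0.16 without HLI replicate 3 and -0.58 without HLI replicate 4. Jsrp1, the gene of the triad protein JP-45 that binds the voltage sensor and calsequestrin, ranged from 153 to 233 CPM in Sham and from 95.3 to 195 CPM in HLI. The Jsrp1 estimate was -0.41 on the log2 scale (SE 0.19, edgeR adjusted p = 0.30). Per Ryr1, Jsrp1 stood at 1.29 ± 0.0932 in Sham and 1.44 ± 0.207 in HLI, and Jph1 at 0.359 ± 0.0487 and 0.421 ± 0.0822 (TPM over TPM, SD, n = 5). The exact two-sided permutation p was 0.18 for each ratio (0.35 after adjustment over 10 ratios).

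Trdn (ENSMUSG00000019787) did not go with the other triad genes among the 10. It encodes triadin, the junctional protein that anchors calsequestrin at the release channel. In Sham replicates 1 to 5 it stood at 227, 208, 408, 343 and 222 CPM. In HLI replicates 1 to 5 it stood at 144, 277, 372, 520 and 248 CPM. HLI replicate 3, where 8 of the 10 genes were lowest, was exceeded within HLI only by replicate 4, and HLI replicate 1 held the lowest level of all. The log2 fold change was 0.15 (SE 0.31, edgeR adjusted p = 0.79) and ranged from -0.12 (without HLI replicate 4) to 0.33 (without HLI replicate 1) when 1 library was left out. Per Ryr1, Trdn ranged from 0.301 to 0.962 in Sham and from 0.452 to 2.41 in HLI, with the highest ratio in HLI replicate 3. On the log2 scale that ratio differed by 0.82 (SE 0.50, exact two-sided permutation p = 0.135, and 0.35 after adjustment over 10 ratios), and by 0.49 without HLI replicate 3. The groups overlapped.

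The deposited counts and TPM of Trdn also differed in their relation to each other. Estimated counts divided by TPM, set against the median gene of the same library, follow the transcript length that the quantification assigned to a gene. On the log2 scale, relative to its own mean, this length of Trdn spanned 0.47 from HLI replicate 3 to Sham replicate 2. The Trdn values were -0.04, 0.29, 0.04, 0.01 and 0.10 in Sham replicates 1 to 5 and 0.02, -0.10, -0.18, 0.0036 and -0.15 in HLI replicates 1 to 5. Its SD over the 10 libraries was 0.13, larger than that of 86.6% of 11827 genes with at least 20 counts in each library, whose median SD was 0.02. For Ryr1, Cacna1s, Casq1, Sln and Pvalb the range was 0.02. The remaining genes lay between, with ranges of 0.20 for Jsrp1, 0.12 for Stac3, 0.07 for Atp2a1 and 0.06 for Jph1. The SD of Jsrp1 was larger than that of 70.6% of genes and that of Stac3 larger than 59.7%. Transcript-level values were not analysed here, so the Trdn isoforms behind this are not named.

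Casq1, which encodes the calcium-binding calsequestrin of fast fibres, ranged from 2445 to 4013 CPM in Sham and from 1534 to 3822 CPM in HLI. The HLI libraries spread across the Sham range, with replicates 1, 3 and 5 below it. The Casq1 estimate was -0.38 on the log2 scale (SE 0.24, edgeR adjusted p = 0.38), and it was -0.25 without HLI replicate 3 and -0.60 without HLI replicate 4. Casq2, the cardiac and slow fibre form, had an estimate of the opposite sign. It stood at 152, 60.2, 59.4, 69.5 and 72.5 CPM in Sham replicates 1 to 5 and at 50.7, 136, 248, 160 and 136 CPM in HLI replicates 1 to 5. Sham replicate 1 was high and HLI replicate 1 low for Casq2, as for the genes of newly formed fibres. Its log2 fold change was 0.82 (SE 0.37, edgeR adjusted p = 0.30), and 0.55 without HLI replicate 3. The ratio of Casq2 to Casq1 was 0.0127 to 0.0358 in Sham and 0.0187 to 0.117 in HLI (TPM over TPM), a log2 difference of 1.18 (SE 0.52, exact two-sided permutation p = 0.048, and 0.24 after adjustment over 10 ratios). Without HLI replicate 3 the difference was 0.80, and without Sham replicate 1 it was 1.44. Of the 6 slow fibre markers, 5 had estimates below 0, with a median of -0.58. All 10 fibre reference genes were also below 0, with a median of -0.53, against 46.2% of all genes. The part of slow fibres in the Casq2 values was not tested.

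Atp2a1 (ENSMUSG00000030730), the gene of the fast fibre calcium pump SERCA1, stood at 19190, 25923, 19677, 21673 and 26405 CPM in Sham replicates 1 to 5. In HLI replicates 1 to 5 it stood at 15080, 17797, 7926, 23407 and 15237 CPM. HLI replicates 1, 2, 3 and 5 lay below every Sham library and HLI replicate 4 within their range. The log2 fold change was -0.51 (SE 0.26, edgeR adjusted p = 0.32), and -0.34 without HLI replicate 3. Atp2a2, which encodes the slow fibre pump SERCA2, averaged 604 ± 88.3 CPM in the Sham libraries and 470 ± 142 CPM under HLI (SD, n = 5), and its estimate was -0.36 on the log2 scale (SE 0.20, edgeR adjusted p = 0.33), and -0.57 without HLI replicate 4. The ratio of Atp2a2 to Atp2a1 was 0.0227 ± 0.00237 in Sham and 0.0255 ± 0.00450 in HLI (TPM over TPM, SD, n = 5), and it was highest in HLI replicate 3 at 0.0332. The log2 ratio differed by 0.16 (SE 0.13, exact two-sided permutation p = 0.25, and 0.35 after adjustment over 10 ratios), and by 0.058 without HLI replicate 3.

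Sln (ENSMUSG00000042045), the gene of sarcolipin, a small peptide that binds SERCA and lowers the calcium transported per ATP, had the widest range of the 10 genes, 24.0-fold from the lowest to the highest library, followed by Pvalb with 4.81-fold. It stood at 23.1, 3.20, 2.41, 2.80 and 5.17 CPM in Sham replicates 1 to 5, from 395, 66, 45, 49 and 78 estimated counts. In HLI replicates 1 to 5 it stood at 2.98, 24.7, 57.8, 17.9 and 23.6 CPM, from 54, 428, 1187, 305 and 435 estimated counts. The libraries thus fell into a low set from 2.41 to 5.17 CPM and a high set from 17.9 to 57.8 CPM, and in each group 1 library, replicate 1, sat with the other group. The groups therefore overlapped, although 4 of 5 HLI libraries lay above 4 of 5 Sham libraries. Sham averaged 7.34 ± 8.88 CPM and HLI 25.4 ± 20.1 CPM (SD, n = 5), and the log2 fold change was 1.80 (SE 0.75, edgeR adjusted p = 0.29).

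The Sln estimate depended on single libraries but kept its sign in each fit that left 1 out. It was 2.91 without Sham replicate 1 (edgeR adjusted p = 0.16), 1.24 without HLI replicate 3 and 2.08 without HLI replicate 1. Genes of newly formed fibres divided the libraries in the same way. Their mean log2 level relative to the 10 libraries was 1.91 in Sham replicate 1, where the rest of Sham had -2.59 to -2.12. It was -2.26 in HLI replicate 1, where the rest of HLI had 1.41 to 4.30. The part of newly formed fibres in the Sln values was not tested. Relative to its target pump, Sln stood at 3.15, 0.325, 0.323, 0.341 and 0.516 TPM per 1000 TPM of Atp2a1 in Sham replicates 1 to 5, and at 0.520, 3.64, 18.5, 2.0 and 4.08 in HLI replicates 1 to 5. The log2 ratio differed by 2.45 (SE 1.05, exact two-sided permutation p = 0.040, and 0.24 after adjustment over 10 ratios). It was 1.81 without HLI replicate 3 and 3.07 without Sham replicate 1. Even at its highest, in HLI replicate 3, Sln stood at 103 TPM against 5549 TPM of Atp2a1.

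Pvalb (ENSMUSG00000005716) encodes parvalbumin, the cytosolic calcium buffer that speeds relaxation of fast fibres. In Sham replicates 1 to 5 it stood at 5120, 6663, 4306, 7271 and 7717 CPM. In HLI replicates 1 to 5 it stood at 3719, 5118, 1603, 6128 and 3770 CPM. HLI replicates 1, 3 and 5 lay below every Sham library, and HLI replicate 3 was the lowest library. The log2 fold change was -0.61 (SE 0.31, edgeR adjusted p = 0.32), the most negative of the 10 genes, and -0.41 without HLI replicate 3.

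**Figure D1:**
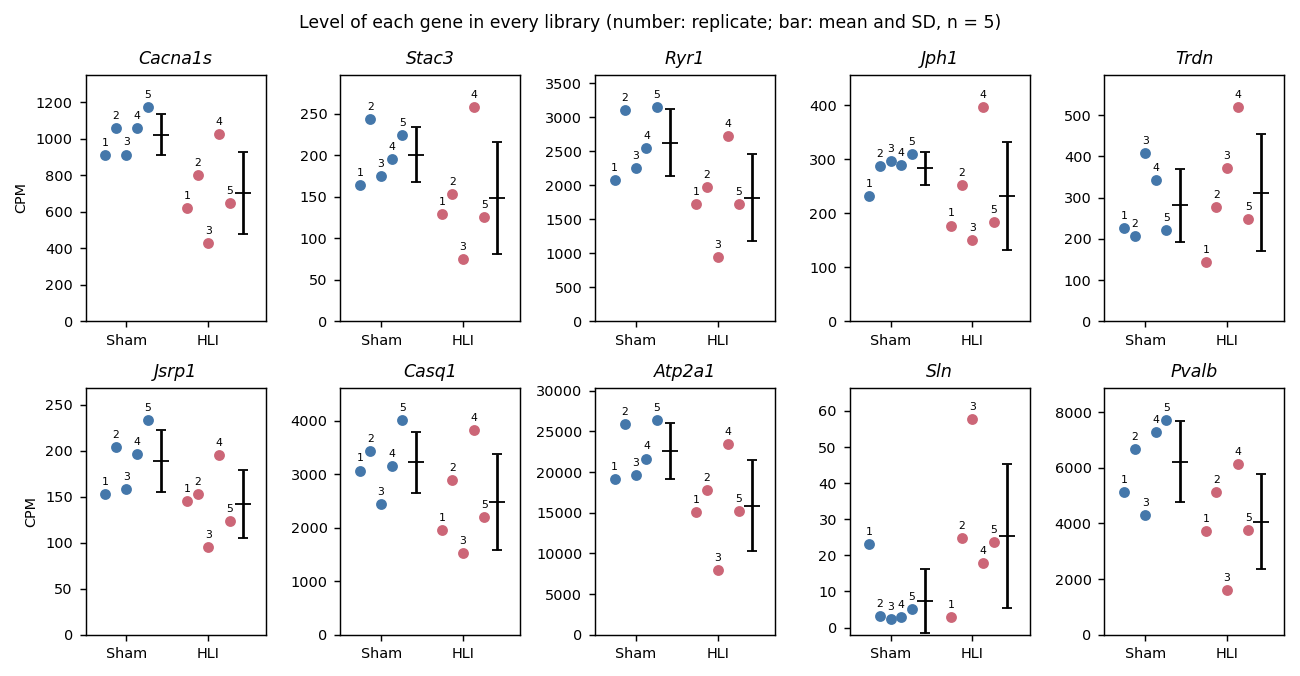
Level in CPM of each of the 10 genes in every library, with Sham in blue and HLI in red, replicate numbers beside the points and the mean and SD (n = 5) in black. Panels run in the order of calcium's path, and every gene has its own axis. HLI replicate 3 is lowest in 8 of the 10 panels, and in the Sln panel Sham replicate 1 (23.1 CPM) and HLI replicate 1 (2.98 CPM) sit with the other group.

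Across most libraries, 8 of the 10 genes, all but Sln and Trdn, went up and down together. These 8 were set apart after the values were seen, and their values are a description. With each gene's log2 CPM centred on its mean over the 10 libraries, all 8 were below 0 in HLI replicates 1, 3 and 5. All 8 were above 0 in Sham replicates 2, 4 and 5 and in HLI replicate 4. In Sham replicates 1 and 3 and in HLI replicate 2 the genes were divided, with 4, 3 and 5 of 8 below 0. No share of all genes with such agreement was computed. The mean of the 8 was -1.04 in HLI replicate 3, -0.35 in HLI replicate 1, -0.35 in HLI replicate 5 and -0.02 in HLI replicate 2. HLI replicate 4, at 0.44, was above Sham replicates 1 to 4, at 0.03, 0.42, 0.04 and 0.30, and below only Sham replicate 5, at 0.52. HLI replicates 3 and 4 were thus farther apart than any pair of Sham libraries.

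**Figure D2:**
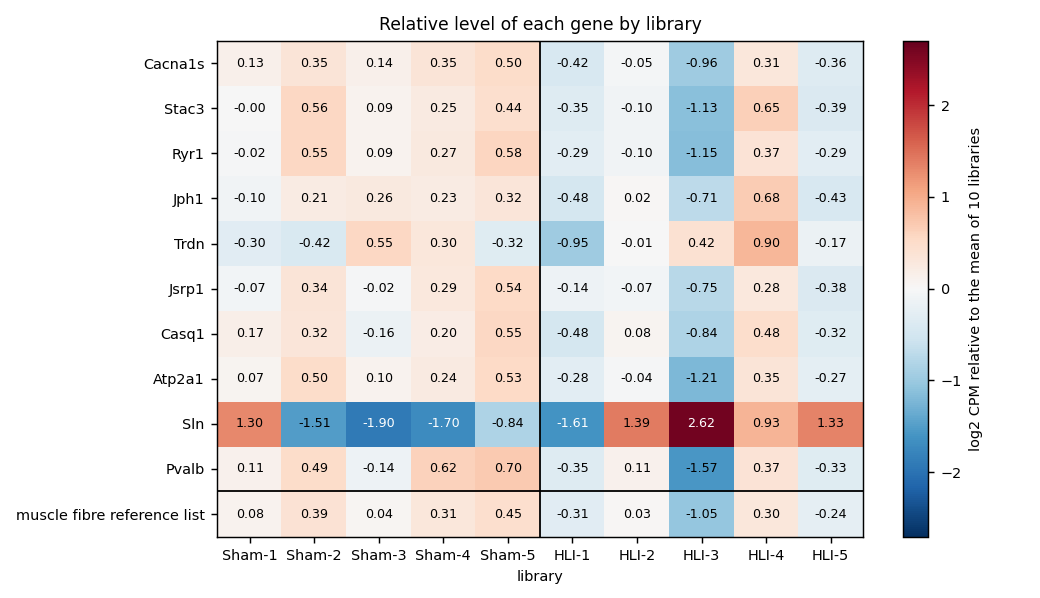
Log2 CPM of each gene in each library, centred on that gene's mean over the 10 libraries, with Sham on the left, HLI on the right and the mean of 10 muscle fibre reference genes in the bottom row. Blue is lower and red higher. The column of HLI replicate 3 is blue for 8 genes and the fibre reference (-1.05) but red for Sln (2.62) and Trdn (0.42).

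The fibre reference genes did not all differ alike between the groups. With TMM scaling, the log2 fold changes of Ttn and Neb were -0.12 and -0.11, and those of the rest lay between -0.59 (Actn3) and -0.40 (Mylpf). On average the reference genes followed the course described above. Their mean relative log2 level was -1.05 in HLI replicate 3, -0.31 and -0.24 in HLI replicates 1 and 5, 0.03 in HLI replicate 2 and 0.30 in HLI replicate 4, against 0.04 to 0.45 in Sham. The values of the 8 genes ran from -1.57 (Pvalb in HLI replicate 3) to 0.70 (Pvalb in Sham replicate 5). After subtraction of the reference mean they ran from -0.51 (Pvalb in HLI replicate 3) to 0.38 (Jph1 in HLI replicate 4). The 8 were picked from these same values, and no share over all genes was computed. With the reference mean subtracted, Trdn stood 1.47 above its own mean in HLI replicate 3, and Sln 3.67 above.

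The gene-wise comparison was repeated with libraries scaled to these 10 fibre genes in place of TMM. That scaling moved the median of all genes from 0.03 to 0.60, and only 4.06% of all genes then had estimates below 0. The 8 genes lay between -0.19 for Pvalb and 0.15 for Jph1. These 8 were picked from the same values, and the scaling genes followed a like course. Their closeness to 0 is therefore a description, and no share of all genes in that interval was computed. Atp2a1 had -0.07 (SE 0.07), Ryr1 -0.08 (SE 0.10), Cacna1s -0.08 (SE 0.11) and Stac3 -0.01 (SE 0.16). Casq1 at 0.08, Jsrp1 at 0.09 and Jph1 at 0.15 changed sign relative to the TMM fit. With fibre scaling Sln had 2.54 (SE 0.89, edgeR adjusted p = 0.10) and Trdn 0.68 (SE 0.37, edgeR adjusted p = 0.15), and 0 of the 10 genes passed. At an unadjusted p under 0.05 stood 1 of the 10, Sln, which was higher, where that scaling put 44% of all genes higher and 0.0746% lower. In the limma fit on log2(TPM + 1), with TPM as deposited and an all-gene median of 0.19, the same 8 genes were below 0, from -0.51 for Pvalb to -0.17 for Jph1, and Trdn had 0.43.

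**Figure D3:**
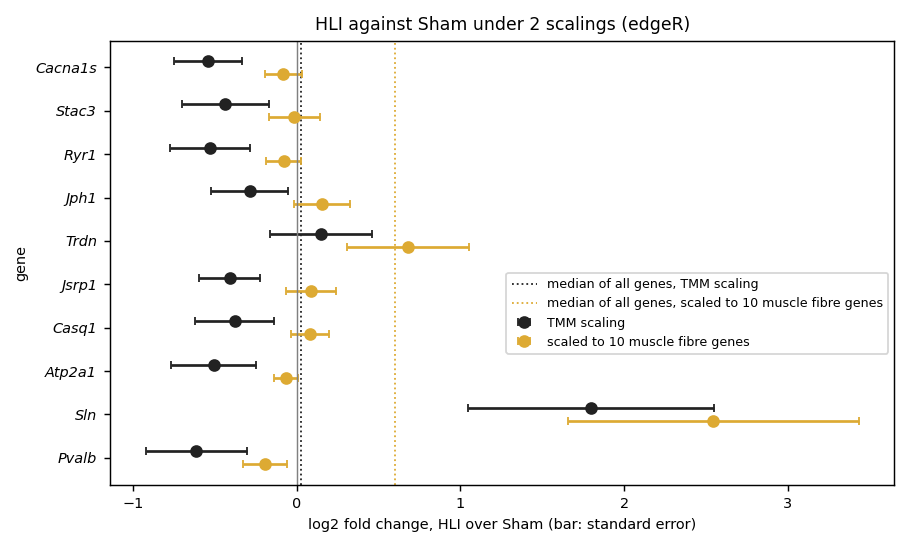
Log2 fold change of HLI over Sham with its standard error for each gene, in black with TMM scaling and in yellow with libraries scaled to 10 muscle fibre genes; dotted lines mark the median of all 13404 genes under each scaling. With fibre scaling 8 genes, picked from these same values, sit between -0.19 and 0.15, while Trdn (0.68) and Sln (2.54) sit to their right.

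Ratios within a library show the proportions of the coupling genes to each other without regard to library scaling. Of the 10 ratios fixed for this comparison, 0 passed at an adjusted p under 0.05, and the smallest p that permuting the group labels allows is 0.0079. At an unadjusted p under 0.05 were Sln per Atp2a1 and Casq2 per Casq1. Casq1 per Ryr1 was 10.3 ± 1.31 in Sham and 11.5 ± 1.52 in HLI (TPM over TPM, SD, n = 5). Stac3 per Cacna1s was 1.42 ± 0.117 and 1.51 ± 0.209, and Jph2 per Jph1 was 1.71 ± 0.288 and 1.67 ± 0.246. These 3 differed by less than the SD of either group. Without HLI replicate 3 the log2 differences of Casq1, Jph1 and Jsrp1 per Ryr1 were 0.096, 0.13 and 0.089, against 0.16, 0.22 and 0.15 with it. That of Stac3 per Cacna1s was 0.08, with 0.0053 without HLI replicate 4 and 0.14 without HLI replicate 3.

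**Figure D4:**
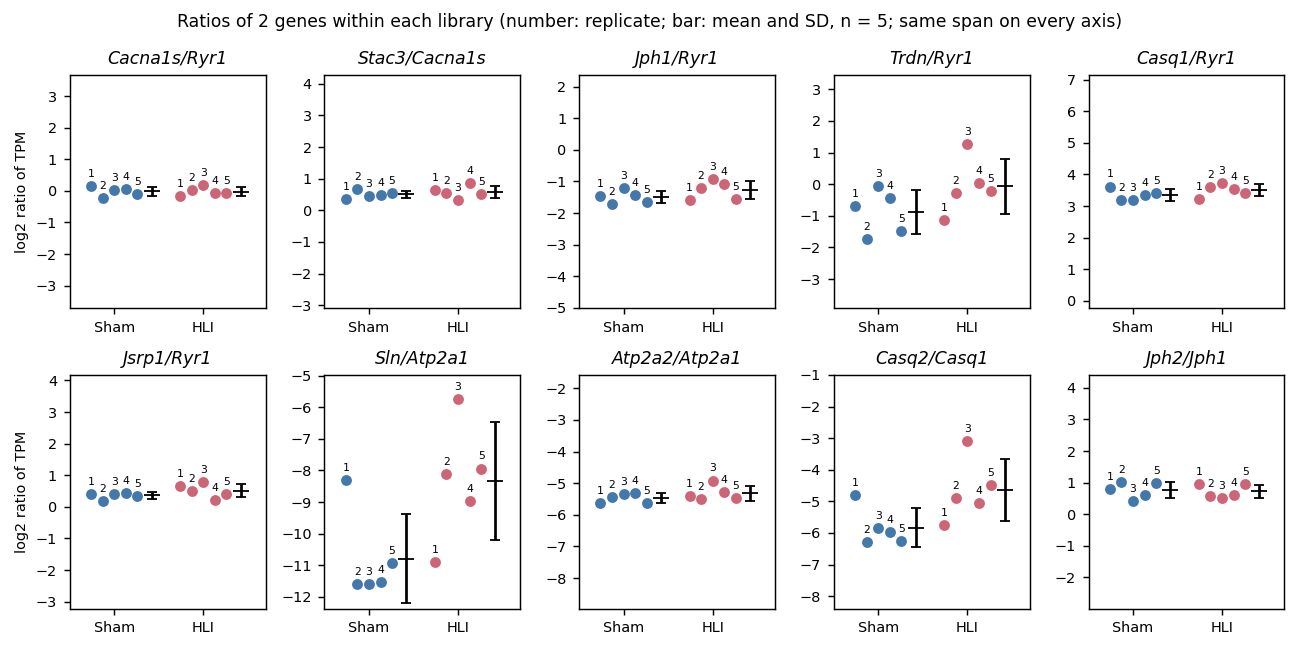
Log2 ratio of TPM for 10 pairs of genes in every library, Sham in blue and HLI in red, with replicate numbers and the mean and SD (n = 5); every axis spans the same log2 distance. Cacna1s per Ryr1 stays between -0.22 and 0.18 in all 10 libraries, while Sln per Atp2a1 spreads from -11.60 in Sham replicate 3 to -5.76 in HLI replicate 3.

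A wider list of 55 genes of the pathway was read beside the 10, of which 54 passed the filter. Strit1, the gene of a peptide that activates SERCA, had 0 to 11 estimated counts per library and was not tested. Of the 54, 0 passed the edgeR test, 39 had estimates below 0 and 15 above, and the median was -0.23. At an unadjusted p under 0.05, 5 were lower and 3 higher, against the 6.15% and 10.7% of all genes. The counts by role below stand beside 46.2% of all genes with estimates below 0, and 4.06% with fibre scaling.

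Genes of membrane excitation were below 0 in 5 of 5 (3 of 5 with fibre scaling), with a median of -0.51. Clcn1, the chloride channel that stabilises the fibre's resting potential, averaged 121 ± 17.8 CPM in the Sham libraries and 80.5 ± 31.9 CPM under HLI (SD, n = 5, log2 fold change -0.59, SE 0.26, edgeR adjusted p = 0.29). Further subunits of the voltage sensor were below 0 in 3 of 4 (1 of 4 with fibre scaling). Among them the γ subunit gene Cacng1 had 186 ± 32.4 and 141 ± 31.3 CPM. Genes of triad and tubule structure were below 0 in 8 of 9 (1 of 9 with fibre scaling), with a median of -0.25. Here Speg, a kinase of the junctional membrane, had 223 ± 42.5 and 166 ± 41.9 CPM, and Jph2, another junctophilin, had 435 ± 91.3 and 342 ± 126 CPM. Neither passed the test (edgeR adjusted p = 0.29 and 0.41).

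Calcium pumps and their peptides were below 0 in 4 of 4 tested genes (1 of 4 with fibre scaling), with a median of -0.42. Mrln, which encodes the SERCA inhibitor myoregulin, averaged 17.7 ± 5.04 CPM in the Sham libraries and 11.9 ± 4.6 CPM under HLI (SD, n = 5). Pln, the gene of phospholamban, was scarce at 3.73 ± 1.148 and 2.69 ± 0.722 CPM. The estimates of these peptide genes were opposite in sign to that of Sln, although that of Pln was 0.02 with fibre scaling. Their log2 fold changes were -0.58 (SE 0.29) for Mrln and -0.47 (SE 0.27) for Pln, and neither passed (edgeR adjusted p = 0.31 and 0.35).

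Partners of the release channel were split, with 5 of 9 below 0 and 4 above (1 and 8 with fibre scaling). Selenon, which encodes a selenoprotein of the reticulum, averaged 31.6 ± 5.39 CPM in the Sham libraries and 46.4 ± 13.3 CPM under HLI (SD, n = 5), and 4 of 5 HLI libraries lay above every Sham library. Its log2 fold change was 0.56 (SE 0.19, edgeR adjusted p = 0.29). Ryr3, the minor ryanodine receptor, was near the lower limit of the data, with 12 to 78.3 estimated counts per library and 1.74 ± 0.395 and 2.26 ± 1.22 CPM. Mitochondrial calcium uptake was also divided, with 2 of 5 below 0 (0 of 5 with fibre scaling). Micu2, a gatekeeper of the mitochondrial uniporter, had 45.5 ± 4.01 and 56.9 ± 7.42 CPM, and 4 of 5 HLI libraries lay above every Sham library (log2 fold change 0.32, SE 0.11, edgeR adjusted p = 0.29).

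Store-operated entry had 2 of 4 genes below 0 (0 of 4 with fibre scaling), and Orai1, the entry channel, averaged 33.6 ± 2.53 CPM in the Sham libraries and 29.4 ± 7.26 CPM under HLI (SD, n = 5). Calcium extrusion had 2 of 4 below 0 (0 of 4 with fibre scaling), and Slc8a1, the sodium-calcium exchanger, had 26.3 ± 4.88 and 31.2 ± 4.54 CPM. Neither gene passed (edgeR adjusted p = 0.47 and 0.36). Calcium sensors and targets were below 0 in 8 of 10 (5 of 10 with fibre scaling), with a median of -0.40. The gene with the smallest p among them was Mylk2, the myosin light chain kinase of skeletal muscle, with 534 ± 148 and 295 ± 130 CPM and an estimate of -0.86 on the log2 scale (SE 0.31, edgeR adjusted p = 0.29). Scaled to the fibre genes, 42 of the 54 wider genes were above 0 and 12 below, where only 4.06% of all genes were below 0. Mylk2 then had -0.43.

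The genes outside the 10 whose levels followed their mean most closely were Ank1, Hoxd8, Stim1, Filip1 and Cd59a, in that order, among 8822 genes with at least 10 CPM. The measure was the root mean square difference in relative log2 CPM over the 10 libraries, which ran from 0.05 for Ank1 to 0.10 for Cd59a, with a median of 0.37 over all candidates. Ank1 gives rise to a small ankyrin of the sarcoplasmic reticulum, and Stim1 encodes the calcium sensor of the reticulum. Both also stand in the wider list. The mean includes Sln and Trdn, whose own distances from it were 1.64 and 0.51. Those of the rest of the 10 ran from 0.15 for Casq1 and 0.19 for Jph1 to 0.30 for Ryr1 and 0.41 for Pvalb. The distance of Pvalb was thus above the median of all candidates. A gene near this mean need not follow each of the 10 genes.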

How the data were processed

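Poly(A) RNA of 5 Sham and 5 HLI gastrocnemius samples was sequenced as paired-end libraries, per the labels' protocols. The series text speaks of cells and the extraction protocol of adipose material, so the handling of the tissue is uncertain. Bowtie 0.12.2, HISAT2 2.0 and the build mm8 stand in the submitters' processing notes, with no role stated. Which counter and annotation were used, and whether strand was, is not stated there, so reads of overlapping genes cannot be told apart. The authors deposited 1 table with an estimated count, not normalized, and a TPM value for each gene and sample, per the file headers. Of the deposited estimated counts 93.4% are whole numbers, and TPM sums to 1000000 in each sample.

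Counts were rounded and tested in R 4.3.3 with edgeR 4.0.16 (quasi-likelihood, TMM, no covariate, genes kept by filterByExpr at minimums of 10 counts and 15 in total), with adjustment over 13404 genes. The biological coefficient of variation was 0.252. The SE of an edgeR estimate was derived as its absolute log2 fold change divided by the square root of its F statistic. CPM uses TMM-scaled library sizes. Relative log2 CPM uses a prior count of 2. Ratios are of deposited TPM, compared by exact permutation of the group labels. Alternatives were DESeq2 1.42.0, its size factors in edgeR, no filter, the replicate number as a block, each library left out, scaling to 10 fibre genes, and limma 3.58.1 on log2(TPM + 1) and log2(TPM + 0.1). Limma on TPM scaled by median of ratios and the comparison of counts with TPM were added after seeing the data.

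The 10 genes and the lists were chosen with earlier results of these data known. Named genes are the 10, 5 paralogs or partners (Atp2a2, Casq2, Jph2, Pln and Ryr3), in each role group the gene with the smallest unadjusted p, and the 5 genes nearest to the mean of the 10. Strit1 and Cacna2d1 were named after their values were seen. The edgeR step was tested on simulated data. Adipocyte, Schwann cell and smooth muscle markers were also read. Promoter windows are RefSeq's on GRCm38.p6, another build than the notes name, and were matched by symbol.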

Additional observations from a re-analysis of the deposited data

Results flagged for a closer look

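In a group of 5 libraries, 1 library far from the other 4 was looked for in each of the 10 genes and 10 ratios, and chance alone marks about 1 group in 20. With Sham and HLI both searched, some marks are to be awaited by chance. Sham replicate 1 was such a library for Sln, at 23.1 CPM against 2.41 to 5.17 CPM in the other Sham libraries. The same library stood apart for the log2 ratio of Sln to Atp2a1, at -8.31 against -11.60 to -10.92 in the others, a value that rests on the same Sln level. For Jph1 it was the lowest Sham library, at 232 CPM against 287 to 310 CPM. Its gap to the next library was 0.714 of the range of the group, barely past the limit of 0.71.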

How the results depend on the processing

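No alternative called any of the 10 genes or passed any of the 10 ratios. Over the whole table the count of genes called was 0 in all settings except DESeq2 itself, which called 42, and the cause was not tested. With 1 library left out at a time, both counts stayed at 0. Scaling to the fibre genes took the wider list from 39 of 54 genes below 0 to 12 and turned 3 of the 10 genes above 0, by the construction of that scaling. The share of all genes below 0 went from 46.2% to 4.06%. Among the 24 genes recomputed singly under each alternative (the 10, the 5 paralogs or partners and those with the smallest p of each role group), 9 turned: Casq1 to 0.081, Jph1 to 0.15, Jsrp1 to 0.087, Atp2a2 to 0.12, Jph2 to 0.11, Pln to 0.016, Cacng1 to 0.12, Speg to 0.060 and Orai1 to 0.30. Over the fits that left out 1 library, Trdn ranged from -0.12 (without HLI replicate 4) to 0.33, the log2 ratio of Cacna1s to Ryr1 from -0.056 to 0.033 and that of Jph2 to Jph1 from -0.12 to 0.030. Over these 24 genes and the 10 ratios, 422 of 432 and 120 of 130 alternative estimates kept their sign. Same-numbered libraries correlated at 0.00, 0.18, 0.28, 0.19 and -0.01. Only Sham replicates 2 and 3 correlated best with their own number in the other group, and no HLI library did. Such correlations between a Sham and an HLI library cannot decide whether same-numbered samples were paired, and the labels do not say. With the replicate block, 0 genes passed, 6 of the 10 were lower and 1 higher at an unadjusted p under 0.05, where 9.5% and 12.8% of all genes were, and the lowest adjusted p was 0.152 (edgeR). A sign-flip test of the ratios with the replicate block passed 0, with 0.0625 as the smallest p it allows. Low counts limit what can be said of Strit1 and Ryr3.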

Other observations

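Markers of other cells that were listed but not used above gave the following sums. The 5 adipocyte markers summed to between 275 and 459 CPM in Sham and between 43.6 and 435 CPM in HLI, with the lowest value in HLI replicate 4. The 5 Schwann cell markers summed to between 315 and 936 CPM in Sham and between 245 and 642 CPM in HLI. The 4 smooth muscle markers summed to between 293 and 458 CPM in Sham and between 230 and 335 CPM in HLI. HLI replicate 4, the highest HLI library for 9 of the 10 coupling genes, thus had the lowest sums of adipocyte and smooth muscle markers and the lowest fibroblast sum of all libraries, at 4126 CPM. Their part in its coupling gene levels was not tested.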
